A study of Homo sapiens with 2 samples.

Results

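The responses of 10 genes under the control of NF-kB were followed in A549 cells, a human lung adenocarcinoma line, after knockdown of the lncRNA MILIP (also known as MAFG-AS1). They were picked by name, with earlier results of these data known. They comprise the chemokines CXCL1, CXCL2, CXCL3, CXCL5, CXCL8 and CCL20, the cytokine IL6, the feedback inhibitors NFKBIA and TNFAIP3, and the NF-kB subunit RELB. All 10 members were among the 60711 Ensembl genes of the deposited table, and 9 of them had a mean of at least 1 over the libraries, as did 13521 genes in all. The cells were harvested 48 h after lipid transfection of control siRNA or of siRNA directed at MILIP, each represented by 1 library, and both groups were cultured in the same serum-containing medium. Only 1 siRNA against MILIP was sequenced, so loss of MILIP and action of this siRNA on other transcripts cannot be told apart.

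NF-kB is a family of dimeric transcription factors that IkB proteins hold inactive in the cytoplasm. Signals from TNF, interleukin-1 or Toll-like receptors activate the IKK kinases, which mark IkB for degradation and let the dimers reach kappaB sites in promoters. The targets include chemokines that call neutrophils and other leukocytes into the lung, and also IkB-alpha (NFKBIA) and A20 (TNFAIP3), which switch the pathway off again.

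The promoters of these genes are shown because NF-kB acts through kappaB sites. The members were picked as NF-kB targets, so the sites are a description of them and not independent of the choice. RefSeq promoters (GRCh38.p14, from 250 bases before to 50 bases after the start) were found for 9 of the 10 members, all but RELB. The kappaB consensus, searched on both strands, was present in 8 of the 9, against 11.3% of all 35116 promoters of the same length. CXCL8 lacked it and held the letters GGAATTTCC, 1 base shorter. These were present in 6 of the 9 members, in the other 5 as a part of the consensus match, and in 0.461% of all promoters. The shorter form was chosen after the CXCL8 promoter had been read. Each stretch of 30 bases below runs 5′ to 3′ on the strand of its gene, with the motif letters in capitals. In CCL20, NFKBIA and TNFAIP3 the motif lies on the opposite strand, and in CXCL1, CXCL2, CXCL3 and CXCL5 matches on both strands overlap, so that 11 bases are in capitals.
CXCL1 (chr4:73869304-73869333, + strand): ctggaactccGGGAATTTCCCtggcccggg
CXCL2 (chr4:74099254-74099283, − strand): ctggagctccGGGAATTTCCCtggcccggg
CXCL3 (chr4:74038749-74038778, − strand): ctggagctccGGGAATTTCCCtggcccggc
CXCL5 (chr4:73998749-73998778, − strand): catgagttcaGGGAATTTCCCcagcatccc
CXCL8 (chr4:73740468-73740497, + strand): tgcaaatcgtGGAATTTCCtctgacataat
CCL20 (chr2:227813753-227813782, + strand): tgatcaatggGGAAAACCCCatgtggcaac
IL6 (chr7:22727117-22727146, + strand): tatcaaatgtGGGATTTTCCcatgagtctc
NFKBIA (chr14:35404811-35404840, − strand): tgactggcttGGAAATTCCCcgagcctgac
TNFAIP3 (chr6:137867188-137867217, + strand): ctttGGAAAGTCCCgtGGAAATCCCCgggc

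The motif lay close to the RefSeq start in each of them. Its first base was between -91 in CXCL5 and -55 at the nearer of the pair of sites in TNFAIP3. The gene coordinates given further on are extents in GENCODE release 29, which can begin before the RefSeq start. The stretches of CXCL2, CXCL3, CXCL5, CCL20, IL6 and TNFAIP3 therefore lie inside those extents. That of CCL20 begins at 227813753, in an extent that begins at 227805739. The longer stretch before the start of CXCL1 shows the motif in place, from -120 to -1.
CXCL1 (chr4:73869273-73869392, + strand): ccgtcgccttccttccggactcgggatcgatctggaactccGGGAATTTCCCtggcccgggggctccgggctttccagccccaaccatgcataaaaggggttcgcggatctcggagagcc
Aligned over their full length, the CXCL1 promoter was 82.5% identical to that of CXCL3 and 69.7% to that of CXCL2. Its identity was 52.3% with the promoter of CXCL5 and 43.1% with that of CXCL8. Of the letters of partner factors, the AP-1 motif TGANTCA (7.71% of all promoters) was present in CXCL8 alone among the 9 members. The C/EBP motif TTGCNNAA (10.5% of all promoters) was present in CXCL2 and IL6. Only exact matches to these letters were counted, so their absence does not mean that a promoter has no site.

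**Figure D1:**
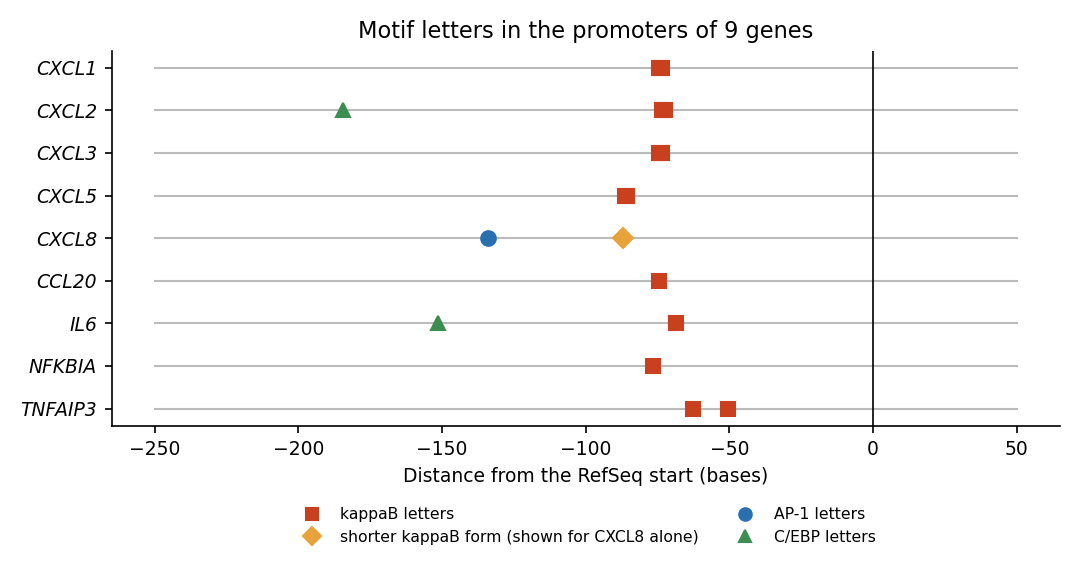
Positions of motif letters in the RefSeq promoters of 9 members, with distance from the start in bases on the x axis and 1 gene per row. Squares mark the kappaB consensus, the diamond the shorter form in CXCL8, the circle the AP-1 letters and triangles the C/EBP letters. The kappaB letters begin between -91 and -55 in all rows.

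The libraries were first checked by their depth and by MILIP itself. The deposited values are read counts that the authors scaled, at about 20 reads for each unit. In reads, the libraries hold 20300800 (control) and 19460956 (MILIP siRNA), and a gene below 20 reads is shown as 0. Pairs of values are given in the order control siRNA, MILIP siRNA throughout. MILIP (ENSG00000265688) was listed at 29.5 and 3.22, which was a ratio of 0.109 (95% limits 0.0831 to 0.142) and the rank 2 lowest log2 ratio of all. All 6 epithelial markers were measured, and 4 of them were past 1.5-fold in either direction, beside 11.1% higher and 13.8% lower over all genes. KRT8 and KRT18, with log2 ratios of 0.18 and 0.03, were abundant in both libraries. KRT7 was lower at 1508 and 810, whereas KRT19 at 62.1 and 121.9, CDH1 at 30.5 and 50.8 and EPCAM at 2.65 and 5.93 were higher. Of 11 immune cell markers, 9 were listed at 0 or without a value, and the summed level of the list was 11.6 with control siRNA and 18.7 with MILIP siRNA, all of it from CD14 and ITGAM. PTPRC, the pan-leukocyte gene, had no value. The 3 endothelial markers were listed at 0 in both libraries, and of the fibroblast markers only THY1 was measured, at 4.51 and 4.22. The part of these markers in the results was not tested.

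Ratios are given as MILIP siRNA over control siRNA. Fold values are without a pseudocount and carry 95% Clopper-Pearson limits, which cover counting error only. Log2 ratios are on the log2(value + 1) scale, which draws low genes toward 0, and a 1.5-fold difference on that scale was set as the line for a call. Replicate spread is unknown with single libraries and no test was run, so that higher and lower describe these libraries. In such bulk RNA, fewer cells expressing a gene and less RNA per cell cannot be told apart.

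The chemokines differed in direction. CXCL1 and CXCL8 were higher and CXCL5, by far the most abundant of them, was lower with MILIP siRNA, whereas CXCL2 differed by less than its counting error. CCL20 was also higher. Of the 9 members measured, 3 were at least 1.5-fold higher and 1 was at least 1.5-fold lower, against a background of 11.1% higher and 13.8% lower over all 13521 genes. The median log2 ratio of the 9 members was 0.29, beside -0.03 for all genes.

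**Figure D2:**
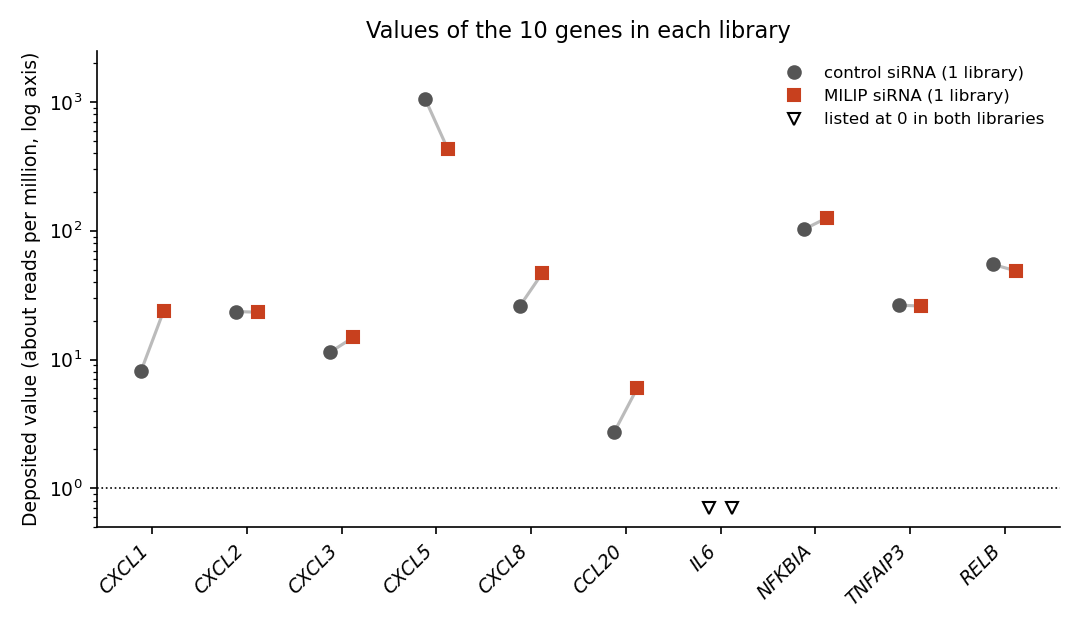
Deposited values of the 10 genes (y axis, scaled read counts, log scale) in the control siRNA library (circles) and the MILIP siRNA library (squares), with 1 library per condition and no error bars. CXCL5 lies above all other members in both libraries, CXCL1, CXCL8 and CCL20 lie higher with MILIP siRNA, and IL6 is listed at 0 in both (triangles below the dotted line at 1).

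CXCL1 (ENSG00000163739, chromosome 4 from 73869393 to 73871242, + strand) encodes a neutrophil attractant that acts through the receptor CXCR2. It was listed at 8.11 and 23.9, from 162 and 475 reads. This was 2.94-fold higher (limits 2.46 to 3.54), a log2 ratio of 1.45 and place 165 from the top among all genes. It was the largest ratio of the 9 members. Among genes of similar level, those averaging 5 to 20, 14.1% were called higher and 14.6% lower.

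CXCL8 (ENSG00000169429, chromosome 4 from 73740506 to 73743716, + strand) encodes interleukin-8, which binds CXCR1 as well as CXCR2. It was listed at 25.9 and 47.1, or 1.81-fold higher (limits 1.63 to 2.02), with a log2 ratio of 0.83. Of the genes averaging 20 to 100, 8.65% were called higher and 15.4% lower.

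CXCL5 (ENSG00000163735, chromosome 4 from 73995642 to 73998779, − strand), a further CXCR2 ligand made by epithelial cells, went the other way. It was listed at 1060.5 and 430.2, from 21173 and 8557 reads. The value was 2.46-fold lower with MILIP siRNA (limits 2.40 to 2.53), with a log2 ratio of -1.30 and place 328 from the bottom. Among genes averaging 100 or more, 14.1% were called lower and 8.16% higher. The ratio was narrowly bounded because of the many reads.

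Neither CXCL2 nor CXCL3, the closest relatives of CXCL1, was called, although CXCL3 was higher to a lesser degree. CXCL2 (ENSG00000081041, chromosome 4 from 74097035 to 74099293, − strand) was listed at 23.6 and 23.3, a ratio of 0.987 (limits 0.866 to 1.12). CXCL3 (ENSG00000163734, chromosome 4 from 74036589 to 74038807, − strand) was listed at 11.4 and 14.8, a ratio of 1.30 (limits 1.09 to 1.55) that did not reach 1.5-fold. The limits of CXCL1 did not overlap those of either gene.

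Reads of such relatives can be hard to assign, and this was examined in the transcripts of GENCODE release 29. Of all 50-base stretches in the longest CXCL1 transcript, 5.73% also occurred in CXCL2 or CXCL3. The share was 9.24% for CXCL2 and 3.02% for CXCL3, and it was 0 in each of them for stretches of 100 bases. No 50-base stretch of CXCL8 or CCL20 was shared, and 1.12% of those of CXCL5 were, all with GLYR1. Exons of the CXC members overlapped those of no other gene.

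CXCL5 set most of the chemokine mRNA in both libraries. Levels were divided by the kilobases of all annotated exons of a gene, and on this scale CXCL5 was listed at 418 and 169.5. This length can exceed that of the transcript, unequally between genes, so comparisons between genes are approximate. It was 1594 bases for CCL20 and 2219 for CXCL3, beside 839 and 1641 in their longest transcripts, and 2538 in both for CXCL5. CXCL1 stood at 6.26 and 18.4 on this scale, and CXCL8 at 11.4 and 20.7. CXCL5 was therefore 66.7 times CXCL1 with control siRNA and 9.20 times CXCL1 with MILIP siRNA. Its share of the summed level of the 5 CXC chemokines was 91.6% and 73.4% respectively. The sum was 456 and 231 per kilobase, or 1.98-fold lower with MILIP siRNA, whereas the sum without CXCL5 was 38.5 and 61.3, or 1.59-fold higher.

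The order of the 9 levels also differed between the libraries below the first 2 places. In both, CXCL5 was the highest per kilobase of annotated exon and NFKBIA the second, with CCL20 the lowest at 1.73 and 3.75. The order depends on these exon lengths, and the place of CCL20 may differ with transcript length. The Poisson limits given next cover counting error only. With control siRNA, CXCL1, TNFAIP3 and CXCL3 followed each other at 6.26, 5.24 and 5.15, and their exact Poisson limits overlapped from one to the next. RELB and CXCL2, at 18.0 and 15.7, overlapped too. With MILIP siRNA, CXCL8, CXCL1, RELB and CXCL2 formed a run from 20.7 to 15.5 in which each gene overlapped the next. CXCL1 thus stood at place 6 with control siRNA and at place 4 with MILIP siRNA, and CXCL8 at places 5 and 3.

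**Figure D3:**
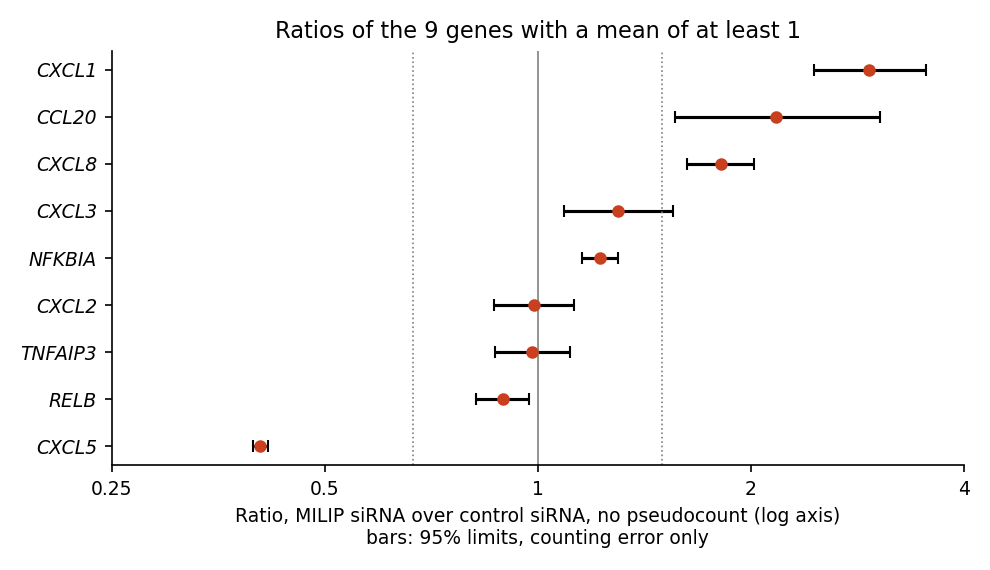
Ratio of MILIP siRNA over control siRNA without a pseudocount (x axis, log scale) for the 9 members with a mean of at least 1, 1 library per condition. Bars are 95% Clopper-Pearson limits for counting error only, and dotted lines mark 1.5-fold. The limits of CXCL1, CCL20 and CXCL8 lie above 1.5, those of CXCL5 lie below the lower line, and those of CXCL2 and TNFAIP3 include 1.

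CCL20 (ENSG00000115009, chromosome 2 from 227805739 to 227817564, + strand) attracts CCR6-bearing lymphocytes and dendritic cells to epithelia. It was listed at 2.75 and 5.98, from 55 and 119 reads. This was 2.17-fold higher with MILIP siRNA, with wide limits of 1.57 to 3.05 and a log2 ratio of 0.90. Among genes averaging 1 to 5, 15.6% were called higher and 9.12% lower.

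IL6 (ENSG00000136244, chromosome 7 from 22725884 to 22732002, + strand), the cytokine of the acute phase response, was listed at 0 in both libraries. No gene was listed from fewer than 20 reads, so at most 19 reads were counted for IL6 in either library, and no ratio was formed. Exons of IL6 overlap those of the opposite-strand genes STEAP1B and AC073072.1. Of the 50-base stretches of IL6, 22.4% occurred in AC073072.1, which had no value in the table. Whether the counting used strand is not given in the sources used here.

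The inhibitors and RELB stayed near their control levels. NFKBIA (ENSG00000100906, chromosome 14 from 35401511 to 35404749, − strand) was listed at 102.5 and 125.5, a ratio of 1.23 (limits 1.16 to 1.30). Its limits excluded 1 but lay below 1.5-fold. TNFAIP3 (ENSG00000118503, chromosome 6 from 137867188 to 137883312, + strand), the ubiquitin-editing enzyme A20, was listed at 26.4 and 26.0, a ratio of 0.983 (limits 0.869 to 1.11). RELB (ENSG00000104856, chromosome 19 from 45001430 to 45038198, + strand), a subunit of the alternative pathway, was listed at 54.7 and 48.8, a ratio of 0.892 (limits 0.817 to 0.973). None of these 3 members was called higher or lower. The log2 ratios were 0.29 for NFKBIA, -0.02 for TNFAIP3 and -0.16 for RELB.

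**Figure D4:**
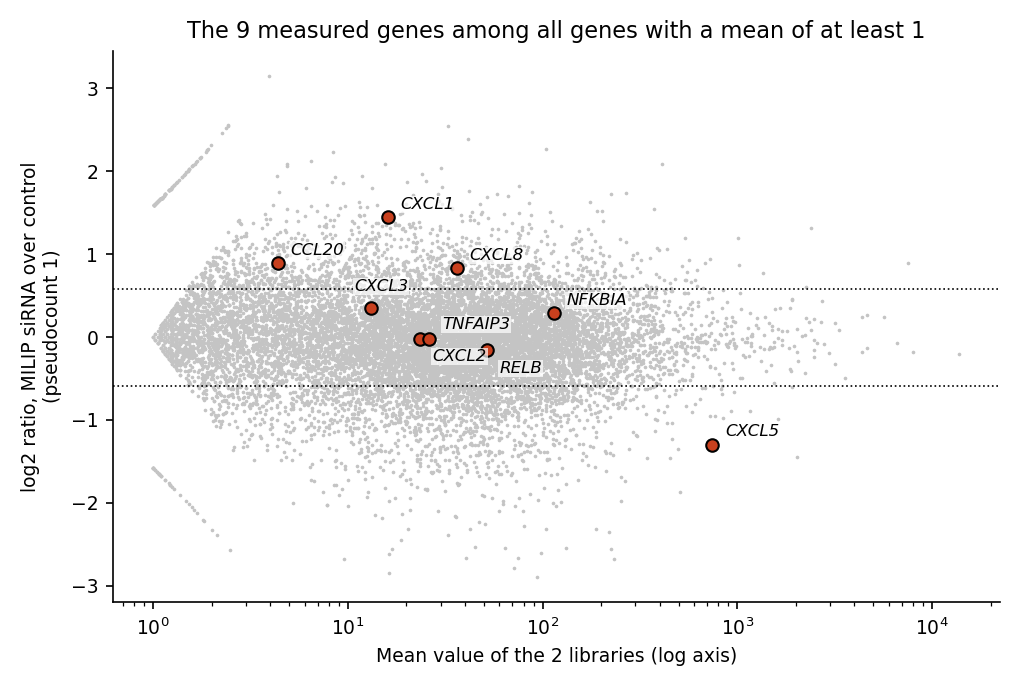
Log2 ratio of MILIP siRNA over control siRNA with a pseudocount of 1 (y axis) against the mean value of the libraries (x axis, log scale) for 13521 genes (grey), with the 9 measured members in red and dotted lines at 1.5-fold. CXCL1, CCL20 and CXCL8 lie above the upper line and CXCL5, among the more abundant genes, below the lower line.

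Transcript GC content moved with the ratios across all genes. The median log2 ratio was -0.24 in the tenth of genes with the lowest GC content and 0.21 in the tenth with the highest. CXCL8 and CCL20, both higher, had low GC contents of 33.4% and 35.5%, and CXCL5, lower, had 37.6%. With the GC trend removed, the log2 ratio of CXCL8 was 1.05 and that of CXCL5 was -1.07, and no member changed sides of the 1.5-fold line.

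The pathway was then described from lists by role, which also hold the members RELB, NFKBIA and TNFAIP3. In each list, counts of called genes are to be read beside 11.1% higher and 13.8% lower over all 13521 genes, and medians beside -0.03. Among the 5 Rel subunits, RELB included, 2 were at least 1.5-fold lower and none was higher, with a list median of -0.41. NFKB1, which encodes p105 and its product p50, was listed at 59.9 and 28.7, a log2 ratio of -1.03. REL, which encodes c-Rel, was listed at 12.6 and 5.23, a log2 ratio of -1.13, and its exons overlap those of AC010733.2 on the same strand. RELA, which encodes p65, was listed at 94.8 and 79.8, a log2 ratio of -0.25. NFKB2, the partner of RELB, was listed at 298 and 224.9, a log2 ratio of -0.41, and was lower with the GC trend removed, at -0.65.

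Of the 6 IkB proteins, NFKBIA included, 2 were higher and none was lower, beside 11.1% and 13.8% over all genes. NFKBIE was lower with the GC trend removed, at -0.70. BCL3, a nuclear IkB protein that acts with p50 and p52, was listed at 53.4 and 112.2, a log2 ratio of 1.06. NFKBIZ, a nuclear IkB protein needed for a set of secondary NF-kB targets, was listed at 13.7 and 25.4, a log2 ratio of 0.84. The cytoplasmic inhibitors NFKBIB and NFKBIE had log2 ratios of -0.04 and -0.47, and NFKBID, a further nuclear form, had 0.34.

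The 13 genes of ubiquitin editing, TNFAIP3 included, held no gene past 1.5-fold, and the log2 ratio of TNFAIP3 was their median of -0.02. RNF31 was lower with the GC trend removed, at -0.68. The highest log2 ratios of the list were 0.51 for RBCK1, 0.35 for TRAF3 and 0.28 for TNIP1. The lowest were -0.54 for ITCH, -0.45 for RNF31 and -0.31 for OTULIN. Among the 11 IKK and upstream kinases only MAP3K8 was past the line. MAP3K8, the kinase TPL2 that p105 binds, was listed at 23.7 and 65.0, a log2 ratio of 1.42. The kinases TBK1, MAP3K7 and CHUK had log2 ratios of -0.52, -0.52 and -0.51, and IKBKG and IKBKE had 0.39 and 0.30. IKBKG has a near-identical partial copy in the genome, so its value is uncertain.

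Receptors and adaptors upstream of NF-kB were listed in both directions, with 2 of 17 measured genes higher and 4 lower, beside 11.1% and 13.8% over all genes. IL1R1, the signaling receptor for interleukin-1, was listed at 32.3 and 77.0, a log2 ratio of 1.23, and the kinase adaptor IRAK2 at 30.9 and 65.8, a log2 ratio of 1.07. In contrast, the co-receptor IL1RAP was listed at 22.4 and 11.3, a log2 ratio of -0.93, and the adaptor MYD88 at 48.2 and 30.1, a log2 ratio of -0.66. TLR3 and TRAF5 lay just past the line at -0.60 and -0.59, and both fell short of it under either other scaling of the libraries. TNFRSF1A, the main TNF receptor, had a log2 ratio of 0.22. The ligands TNF, IL1A and IL1B were listed at 0 in both libraries.

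The lists of other chemokines and cytokines were measured in part. Of 17 other chemokines, 13 were listed at 0 in both libraries and 3 were measured, of which CCL26 was higher, at 1.40 and 4.58. CCL2 and CXCL16 had log2 ratios of 0.43 and -0.23. CXCL6, a close relative of CXCL5, was listed at 0. Among 6 measured cytokines, IL32 was higher at 5.71 and 12.9, and EBI3 at 2.45 and 4.22. EBI3 was no longer past 1.5-fold with the GC trend removed, at a log2 ratio of 0.41. IL11, IL18, CSF1 and LIF had log2 ratios of 0.52, 0.32, 0.27 and -0.35.

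Of 6 receptor genes for the members, CXCR2 was listed at 0, CXCR1, CCR6 and ACKR1 had no value, and IL6ST and IL6R were measured. IL6ST, which encodes gp130, the signal transducer shared by IL6, LIF and IL11, was listed at 405 and 62.2, a log2 ratio of -2.68. This was the largest difference in the pathway lists, from 8085 and 1238 reads, and exons of IL6ST overlap those of AC008914.1 on the opposite strand. IL6R had a log2 ratio of -0.49.

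Among 21 other measured NF-kB target genes 5 were higher, 2 were lower and 14 were neither, with a median of 0.07. Over all genes, 11.1% were higher and 13.8% lower. PTGS2, the inducible cyclooxygenase, was listed at 33.0 and 118.9, a log2 ratio of 1.82. The complement gene C3 was listed at 30.7 and 101.8, a log2 ratio of 1.70, and the proteoglycan gene SDC4 at 42.3 and 84.8, a log2 ratio of 0.99. ICAM1 and LCN2 were higher at low levels, with log2 ratios of 1.02 for both. BIRC3, the apoptosis inhibitor cIAP2, was listed at 206.5 and 102.7, or 2.01-fold lower (limits 1.91 to 2.12), and TRAF1 at 15.1 and 7.44, a log2 ratio of -0.93. GADD45B had a log2 ratio of -0.54, and of -0.66 with the GC trend removed, which was past the line.

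**Figure D5:**
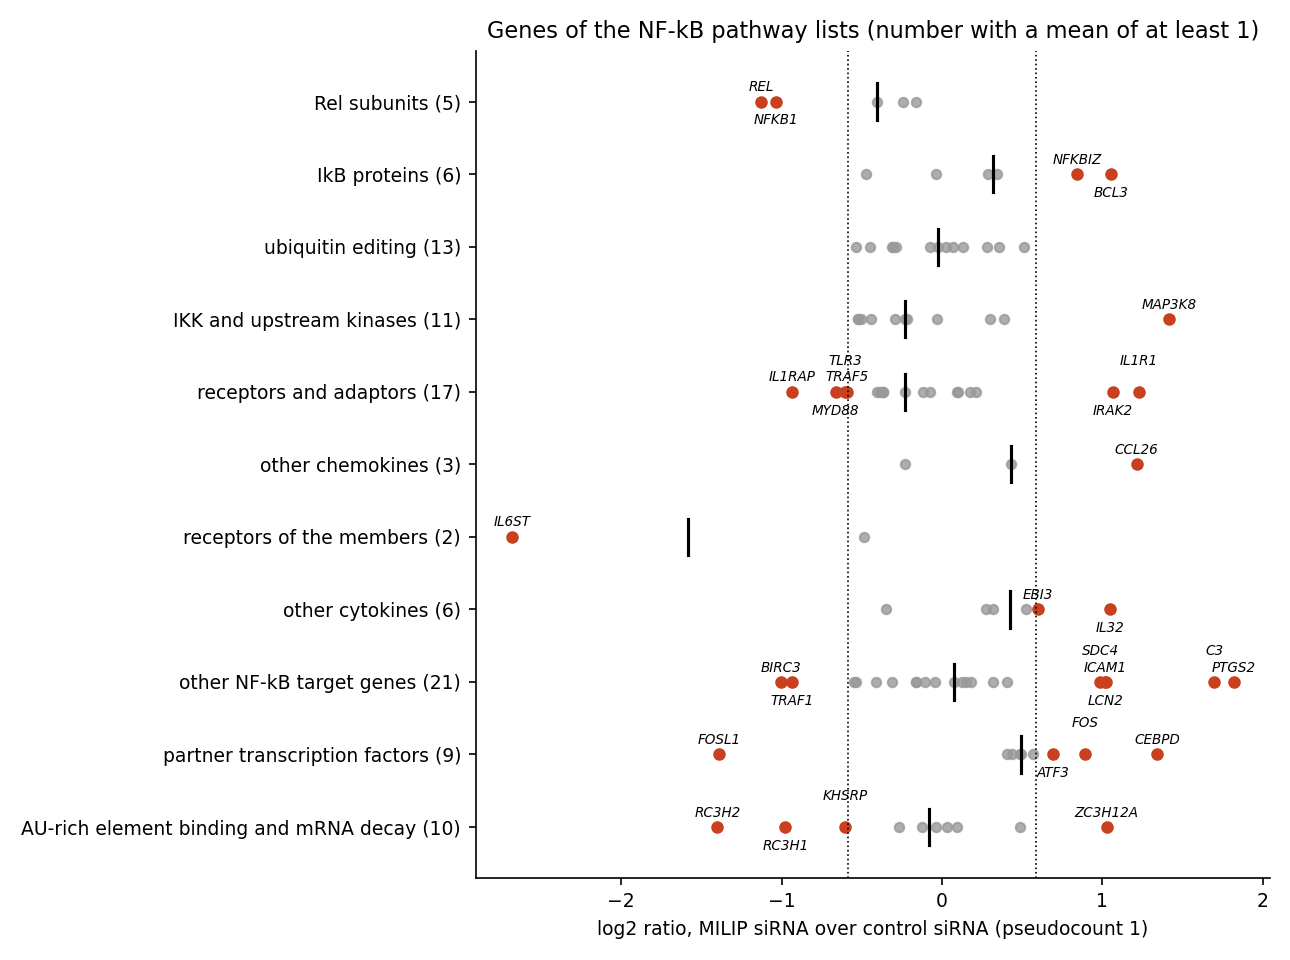
Log2 ratio of MILIP siRNA over control siRNA with a pseudocount of 1 (x axis) for each gene of 11 pathway lists with a mean of at least 1, with the number of genes in brackets. Red points with names are at least 1.5-fold higher or lower (dotted lines), and black bars are list medians. The Rel subunits lie at or below -0.16, and IL6ST at -2.68 lies farthest from 0.

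Transcription factors that bind the CXCL8 and IL6 promoters beside NF-kB were mostly above 0, with a list median of 0.49 against -0.03 for all genes. Of the 9, 3 were higher and 1 lower, beside 11.1% and 13.8% over all genes. CEBPD was listed at 16.4 and 43.1, a log2 ratio of 1.34, FOS at 48.0 and 89.9, a log2 ratio of 0.89, and ATF3 at 12.7 and 21.1, a log2 ratio of 0.69. CEBPB, JUN, JUND, JUNB and FOSL2 had log2 ratios of 0.57, 0.49, 0.49, 0.44 and 0.40, and CEBPB passed 1.5-fold under either other scaling. FOSL1 was the exception, at 125.5 and 47.3, a log2 ratio of -1.39.

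The kappaB consensus was also counted over the 10349 measured genes with a promoter. Of the 1804 whose promoter held it, 12.8% were at least 1.5-fold higher and 13.5% were lower, with a median log2 ratio of -0.01, all near the values of the background. Besides the members, 34 of the 113 pathway genes with a promoter held the kappaB consensus, or 30.1%. This share counts genes, for which the like count is 1804 of the 10349 measured genes. The 11.3% given for all promoters counts promoters and includes those of genes not measured. Among the 34 pathway genes were NFKB1, REL, BCL3, NFKBIZ, MAP3K8, BIRC3 and IL6ST, which differed in both directions. Of the 25 that were measured, 7 were higher and 5 lower, beside 11.1% and 13.8% over all genes. The pathway genes were picked for roles around NF-kB, with earlier results of these data known. The counts are therefore a description and were not tested.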

How the data were processed

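RNA from 2 A549 libraries, 1 with control siRNA and 1 with MILIP siRNA, was analysed as deposited. The submitters' processing notes name TopHat2 2.0.12, HTSeq 0.6.1 and hg38. The authors scaled the read counts by a method not given in the sources used here, and the deposited signal holds whole multiples of 0.0501 (control) and 0.0503 (MILIP siRNA), within 0.01 of a step for 100% of values above 0. One step was taken as 1 read. The authors' own fold changes, p-values, q-values and calls were not used. The column names matched the sample titles.

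Log2 ratios used a pseudocount of 1 over the 13521 genes averaging 1 or more, of which 13398 had a symbol. Genes were called at 1.5-fold, with no test. Gene models and transcripts were from GENCODE release 29 (GRCh38) and promoters from RefSeq. The calculations were tested on simulated data. Members and lists were chosen with earlier results of these data known. The text names the members, MILIP, all Rel subunits, IkB proteins and partner factors, and of each other pathway list the 3 highest and 3 lowest ratios and all genes past 1.5-fold. The cell type markers were named apart from this rule. Matches of the siRNA to transcripts of the members were not examined. Python 3.11.15, numpy 2.4.6, pandas 2.3.3, scipy 1.17.1, Biopython 1.88 and matplotlib 3.10.9 were used.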

Additional observations from a re-analysis of the deposited data

How the results depend on the processing

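The alternatives were a pseudocount of 0.1, none, scaling by the median of ratios or to the total of listed reads, no filter, a minimum mean of 5, correction for the GC trend and a 2-fold line. Of 108 values under them, 101 stayed within their counting error or within 1.5 times the count, and none changed sign among called genes. At 2-fold, 1 of the 9 measured members was higher (CXCL1) and 1 was lower (CXCL5). Over all 13521 genes, 471 were higher and 625 lower, by construction fewer. The log2 ratio of CXCL5 was -1.24 with scaling to listed reads and -1.07 with the GC trend removed, which also gave 1.05 for CXCL8 and -0.37 for RELB; no member changed its call at 1.5-fold. A mean of at least 5 left out CCL20. The scalings shifted the median of all genes by 0.03 and 0.05. Among 100 other pathway genes, either scaling ended 3 calls (TLR3, TRAF5 and KHSRP) and added 1 (CEBPB), and removal of the GC trend ended 3 (TLR3, TRAF5 and EBI3) and added 5 lower genes, NFKB2, NFKBIE, RNF31, TNFRSF12A and GADD45B. No paired analysis was possible because there is a single library of each kind, and for the same reason none could be left out. Depth limits IL6 and CCL20 most.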

Other observations

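Chemokine mRNAs are short-lived, and many carry AU-rich elements in their 3′ UTR that decay factors bind. The pentamer ATTTA occurred in the 3′ UTR of 9 of the 10 members, all but RELB, with between 3 copies in CCL20 and NFKBIA and 11 copies in CXCL5. CXCL2 held 10, CXCL8 9, CXCL3 7, IL6 6, and CXCL1 and TNFAIP3 5 each. At least 3 copies were present in 46.6% of the 12216 measured genes with an annotated 3′ UTR. Over all these genes the median log2 ratio was 0.13 with no copy, -0.16 with at least 3 and -0.28 with at least 10. ATTTA holds no G or C, and its counts were not adjusted for 3′ UTR length or GC content. These medians therefore cannot be told apart from the GC trend given above. CXCL1, CXCL8 and CCL20 were thus higher in a class of genes whose median was lower, and CXCL5 was lower, without a test of either.

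Of 10 genes for AU-rich element binding and mRNA decay, 1 was at least 1.5-fold higher and 3 were lower. Over all genes, 11.1% were higher and 13.8% lower. ZC3H12A, which encodes the endonuclease regnase-1 that cleaves IL6 mRNA, was listed at 29.4 and 60.8, a log2 ratio of 1.03. RC3H2 and RC3H1, which encode the roquin proteins that act on related stem-loops, were listed at 87.1 and 32.4 and at 49.9 and 24.9, with log2 ratios of -1.40 and -0.98. KHSRP, a decay factor for AU-rich mRNAs, was listed at 291 and 191, a log2 ratio of -0.61, and fell short of 1.5-fold under either other scaling, at -0.57 and -0.55. ZFP36, which encodes tristetraprolin, was listed at 37.3 and 36.4, a log2 ratio of -0.03, and ZFP36L1 and ZFP36L2 had 0.48 and 0.09.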
